A study of Mus musculus with 4 samples.

Results

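The heat shock proteins and their partners fold new proteins, hold damaged ones in solution and pass others on for degradation. HSP70 proteins bind exposed hydrophobic stretches in an ATP cycle that J proteins (DNAJ) start and that exchange factors (the HSP110 and BAG proteins) reset. HSP90, the small HSPs and the chaperonins CCT (cytosol) and HSP60 (mitochondria) act on other classes of client, and HSF1 is the transcription factor that raises many of these genes in heat and proteotoxic stress. Cytosolic and mitochondrial members of these families were described here as the 85 of 24444 rows of the expression table whose symbols belong to the HSPA, HSPB, HSP90A, HSPD, HSPE, HSPH, DNAJA, DNAJB, DNAJC, BAG and CCT series, with Tcp1 and Hsf1. The ER genes Hspa5, Hspa13, Dnajb9, Dnajb11 and Dnajc3 were left out. The symbol patterns also took in proteins placed in the ER, such as Dnajc1 and Dnajc10, and Hspb11, an intraflagellar transport subunit, so the set is wider than its compartments.

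Oesophageal cells of mice of the C57BL/6J strain were grown in culture, and their poly(A) RNA was sequenced in 4 libraries. The wild-type (WT) cells, 2 libraries, carried no treatment and no CRISPR/Cas9 cassette. The other 2 libraries, titled HET and called E79Q below, came from CRISPR/Cas9 microinjection with an Nfe2l2-E79Q cassette, a tumour-derived mutation in NRF2, the transcription factor of antioxidant genes; the labels used here give no age, no number of animals behind a library and no driver of the allele in these cells. All column headers carry the word SV40, which the labels do not explain. The series' design text names a human breast cancer line and another target gene, against the title and every sample label, and was not followed. Nothing in the labels says that replicates were separate cultures or animals. The p-values measure how far the difference between WT and E79Q varies between the 2 replicate numbers, with the spread pooled over genes. That spread may be technical.

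The values are deposited variance-stabilised (VST) values on a log2-like scale, which compresses changes in weakly expressed genes. The table has a floor of 6.98, at which 8120 genes lie in all libraries. A gene was tested with limma where its value was 7.90 or more, 1 above the lowest value in the table, in at least 2 libraries, and called at a Benjamini-Hochberg adjusted p under 0.05 over all 10857 genes tested. Differences are E79Q minus WT ± SE over n = 2 pairs of equally numbered libraries. Ratios of normalised counts were computed by inverting the VST. With 2 pairs the smallest two-sided p of an exact permutation test is 0.5, so every call rests on the spread pooled over genes. Fits that leave out 1 library have no replicate block, since its pair is then broken, so they change the block and the library together. The authors had centred the deposited values on the replicate number. A fit without the block counts more degrees of freedom than such values hold. A call made only in such a fit is therefore not evidence of a difference. Nfe2l2 itself lay at 11.38 and 11.27 in WT and at 11.17 and 11.27 in E79Q, which checks no label, since the allele is a substitution. Summed normalised counts were 13.5 to 13.9 M per library. All 12 oesophageal keratinocyte markers were high enough to test, with Krt5 between 15.8 and 15.9 in every library. Calls were made in 58.3% of them, 4 higher and 3 lower in E79Q, against 40.4% of all tested genes. The widest were Dsg3 and Itga6, higher by 0.74 and 0.73, and Krt15, which fell by 0.58. None of 10 fibroblast markers and none of 8 endothelial markers reached the test; the summed normalised counts of the fibroblast list were 93.6 to 113 in WT and 90.4 to 100.4 in E79Q, with Dpt and Lum at the floor. Of 9 immune markers only Cd68 was tested, and it was called higher in E79Q (0.67), while Ptprc, Cd3e, Tyrobp, Cd52 and Laptm5 were at the floor. The immune list summed to 168 and 190 normalised counts in WT and to 377 and 415 in E79Q. Nearly all of this was Cd68, with 164 and 184 in WT and 370 and 405 in E79Q. The other 8 immune markers were under 10 counts in every library. Of 8 muscle markers only Smtn was tested and it was not called, and Myod1 was at the floor. That list summed to 870 to 944 in WT and 844 to 920 in E79Q, mostly Smtn (834 to 918 in WT, 815 to 897 in E79Q). Xist lay at 11.99 and 12.17 in WT and at 7.30 and 7.12 in E79Q, whereas the Y-linked Ddx3y, Eif2s3y, Kdm5d and Uty were above the floor in all 4 libraries. These 4 Y-linked genes were higher in E79Q in both pairs. Ddx3y (0.54) and Uty (0.31) were called higher, and Kdm5d (0.13) and Eif2s3y (0.06) were not called. No chaperone member lies on a sex chromosome in RefSeq, but a difference in the make-up of the cultures by sex cannot be told apart from genotype in this design.

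Of the 85 members, 6 were at the floor in all libraries, namely Cct8l1, Dnajb8, Dnajb13, Dnajc5g, Hspb3 and Hspb7. A further 11 lay above the floor in at least 1 library without passing the filter, the nearest being Dnajb5 at 7.79 to 7.89. The remaining 68 were tested. In E79Q cells 17 members were called higher, where 21.5% of all tested genes were, and 13 lower, where 18.9% were. In all, 44.1% of tested members were called against a background of 40.4%, and the median difference was -0.0057 over the members and 0.0062 over all tested genes. The shares of calls were near the background, and calls went in both directions. The same shares of all tested genes, 40.4% called, 21.5% higher and 18.9% lower, are the background for each family and list count below. A call with an absolute difference of at least 0.3 was made in 9 of 68 members, where 14.6% of all tested genes had one, and the widest were -0.61 in Hspa8 and 0.59 in Hspb8. Groups did not overlap in 57 of 68 members (83.8%), against 79.2% of all tested genes. Because the deposited values were centred on the replicate number, absence of overlap only says that both pairs differed in the same direction.

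**Figure D1:**
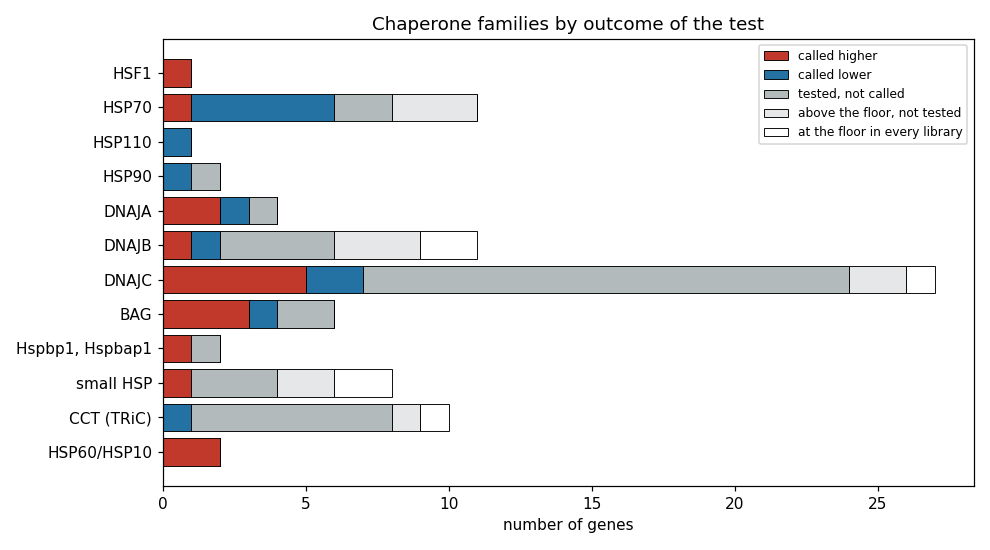
Number of genes in each chaperone family by outcome of the limma test, with genes called higher in E79Q in red, called lower in blue, tested without a call in grey, and not tested in the palest shades. HSP70, which here includes Hspa4 and Hspa4l by symbol, held 5 genes called lower and 1 called higher of 11, whereas 17 of 27 DNAJC genes were tested and not called.

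HSF1, the regulator, was slightly higher in E79Q cells. Hsf1 lay at 10.002 and 10.06 in WT and at 10.23 and 10.18 in E79Q, without overlap. The difference was 0.17 ± 0.06 (limma adjusted p = 0.0233) and the call was lost without the filter on low values. Of 7 other HSF regulators 3 were tested. Hsbp1, which binds HSF1 and restrains it, was called lower (-0.17 ± 0.05), and Hsf2 (-0.09) and Hikeshi (0.0024), the nuclear importer of HSP70, were not called.

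HSF1 trimers bind inverted repeats of GAA, the heat shock element. RefSeq promoter windows on GRCm38.p6, of 250 bases before each start, were matched for 69 of the 85 members; Hspa8, Hspa9, Hsp90ab1 and Hsf1 are among those not matched. The 2-unit element, TTCNNGAA or GAANNTTC on either strand, occurred in 17 of the 69 members, against 14.6% of all 27025 genes. It occurred in 5 of 13 matched members called higher, in 5 of 11 called lower and in 5 of 31 tested without a call. The stricter 3-unit element, TTCNNGAANNTTC or GAANNTTCNNGAA, which contains the shorter one, was found in 3 members, Dnajb6, Hspd1 and Hspe1, against 0.514% of all genes. The core of the antioxidant response element that NRF2 binds, TGACNNNGC or GCNNNGTCA, was found in 13 of 69 members, against 11.5% of all genes, with 2 of 13 among those called higher and 5 of 11 among those called lower. Such matches are descriptions of letters in a window and not binding sites. The windows below were chosen from members that hold the 2-unit element, which stood before genes that fell and a gene that rose. Capitals mark its matches. Where a gene has several windows, the one with the most matches is shown. The windows of Hspb8 and Bag3, both called higher, hold no match. The Hsph1 window also holds 2 antioxidant response element cores, which are not marked. Hspa1b (chr17:34959239-34959488, minus strand), Dnaja1 (chr4:40722218-40722467, plus strand) and Hsph1 (chr5:149636337-149636586, minus strand) were called lower. Hspe1 (chr1:55087898-55088147, plus strand) was called higher.
Hspa1b: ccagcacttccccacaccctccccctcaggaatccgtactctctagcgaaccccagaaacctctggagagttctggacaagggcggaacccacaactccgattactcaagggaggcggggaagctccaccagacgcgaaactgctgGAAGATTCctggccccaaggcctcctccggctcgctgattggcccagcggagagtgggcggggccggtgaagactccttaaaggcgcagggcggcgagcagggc
Dnaja1: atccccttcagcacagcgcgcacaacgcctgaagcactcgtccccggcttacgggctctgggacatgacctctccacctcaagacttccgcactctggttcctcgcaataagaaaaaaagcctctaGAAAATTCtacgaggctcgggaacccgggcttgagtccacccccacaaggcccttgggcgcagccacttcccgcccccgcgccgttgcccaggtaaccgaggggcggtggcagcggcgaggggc
Hsph1: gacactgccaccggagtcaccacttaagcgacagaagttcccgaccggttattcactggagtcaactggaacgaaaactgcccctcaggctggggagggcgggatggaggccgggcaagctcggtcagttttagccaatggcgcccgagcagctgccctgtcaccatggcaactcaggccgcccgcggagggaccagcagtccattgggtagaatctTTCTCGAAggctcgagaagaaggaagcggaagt
Hspe1: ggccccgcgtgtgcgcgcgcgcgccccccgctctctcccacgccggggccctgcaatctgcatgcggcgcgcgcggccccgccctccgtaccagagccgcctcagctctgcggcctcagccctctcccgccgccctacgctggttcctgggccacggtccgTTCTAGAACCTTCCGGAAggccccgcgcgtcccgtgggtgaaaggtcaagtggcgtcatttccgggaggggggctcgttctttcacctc
The element lay 104 to 97 bases before the start of Hspa1b and 33 to 26 bases before that of Hsph1. In Hspe1, 3 overlapping matches made 1 run from 89 to 72 bases before the start. Hspe1 and its neighbour Hspd1 are transcribed away from each other, and the windows of both cover this same run. The Hspa1a window differs from that of Hspa1b at 3 of 250 bases and holds the element at the same place.

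Of 8 tested genes with HSPA symbols, counted here as HSP70, 5 were called lower in E79Q cells and 1, the mitochondrial Hspa9, higher. Those called lower were Hspa8, Hspa1b, Hspa2, Hspa4l and Hspa1a. Hspa4l and Hspa4 are in this count by symbol and are described again below with the HSP110 group. The family median was -0.21, and Hspa4 and Hspa14 were not called. Hspa8, which encodes the constitutive cytosolic HSP70 that also uncoats clathrin vesicles, lay at 13.84 and 13.73 in WT and at 13.12 and 13.23 in E79Q. Both E79Q libraries were well below both WT libraries. The difference was -0.61 ± 0.05 (limma adjusted p = 1.51e-07), a 1.54-fold lower normalised count. In bulk RNA such a difference does not tell fewer cells of a type from less RNA per cell. Of the stress-inducible pair, Hspa1b lay at 10.46 and 10.41 in WT and at 9.92 and 9.98 in E79Q. It fell by 0.49 ± 0.06, a 1.52-fold lower count. Hspa1a lay lower on the scale in every library, at 8.88 and 8.83 in WT and at 8.63 and 8.69 in E79Q. It fell by 0.20 ± 0.07 (limma adjusted p = 0.0298), a call lost without the filter; under the stricter filter it was not tested. Hspa1a and Hspa1b are near-identical neighbours, so how reads were split between them is uncertain. Hspa2, an HSP70 best known from the testis, lay at 9.15 and 9.18 in WT and at 8.83 and 8.79 in E79Q, and fell by 0.36 ± 0.07. Hspa14, a ribosome-associated HSP70 relative, lay between 10.84 and 10.97 in all libraries and was not called.

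Sequence shared with other genes bears on which of these values can be assigned to 1 locus. Windows of 50 bases from the coding transcripts of each member (GENCODE M21) were looked up in the transcripts of all other genes. For Hspa8, 67.3% of windows occurred elsewhere, spread over 11 genes, of which none is a row of the deposited table. For Hspa1b the share was 62.3% and for Hspa1a 60.4%, almost all with each other. It was 39.7% for Hspd1, 36.1% for Hspe1 and 17.7% for Dnaja1. Those 6 were the only ones of the 30 called members to share at least 10%, and the other 24 shared under 5%. The split of reads among copies was not tested.

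Of the 3 exchange factors of the HSP110 group, 2 were called lower and 1 was not called. Hspa4l and Hspa4 among them are already counted above by their HSPA symbols. Hsph1 lay at 10.87 and 10.85 in WT and at 10.71 and 10.73 in E79Q and fell by 0.14 ± 0.05, with the call lost without the filter or the mean-variance trend. Hspa4l, a related protein, lay at 10.41 and 10.39 in WT and at 10.17 and 10.19 in E79Q and fell by 0.22 ± 0.05. Hspa4, another relative, lay at 12.50 and 12.47 in WT and at 12.57 and 12.60 in E79Q. Its difference of 0.09 ± 0.04 was not called with the replicate block (limma adjusted p = 0.113). It was called higher only in fits without the block, which count too many degrees of freedom for centred values.

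Of the HSP90 isoforms, Hsp90ab1 was called lower in E79Q cells and Hsp90aa1 was not called. Hsp90ab1, the constitutive beta isoform, lay at 15.20 and 15.22 in WT and at 14.91 and 14.90 in E79Q. After the authors' centring on the replicate number, the libraries of a group were within 0.02 of each other. The difference was -0.31 ± 0.04, a 1.24-fold lower count. Hsp90aa1, the inducible alpha isoform, lay at 14.10 and 14.04 in WT and at 14.05 and 14.11 in E79Q. Its groups overlapped, with a difference of 0.01 ± 0.05 whose sign turned after median centring, after quantile normalization and in the unblocked fits without replicate 2 of either group. The difference between the isoforms' responses was not tested, and 50.1% of Hsp90aa1 windows occur in other genes. Of 25 HSP90 co-chaperones, 24 were tested, 2 were called higher and 6 lower, with a median of -0.06. Calls were made in 33.3% of those tested, against 40.4% of all tested genes. The 3 with the widest differences were Fkbp8, a membrane-anchored immunophilin (-0.23 ± 0.05), Stip1, which bridges HSP70 and HSP90 (-0.20 ± 0.04), and Nudcd1 (0.20 ± 0.06). Cdc37, the kinase adaptor, was also called lower (-0.19), but it falls outside the rule for named genes and was chosen after its values were seen.

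**Figure D2:**
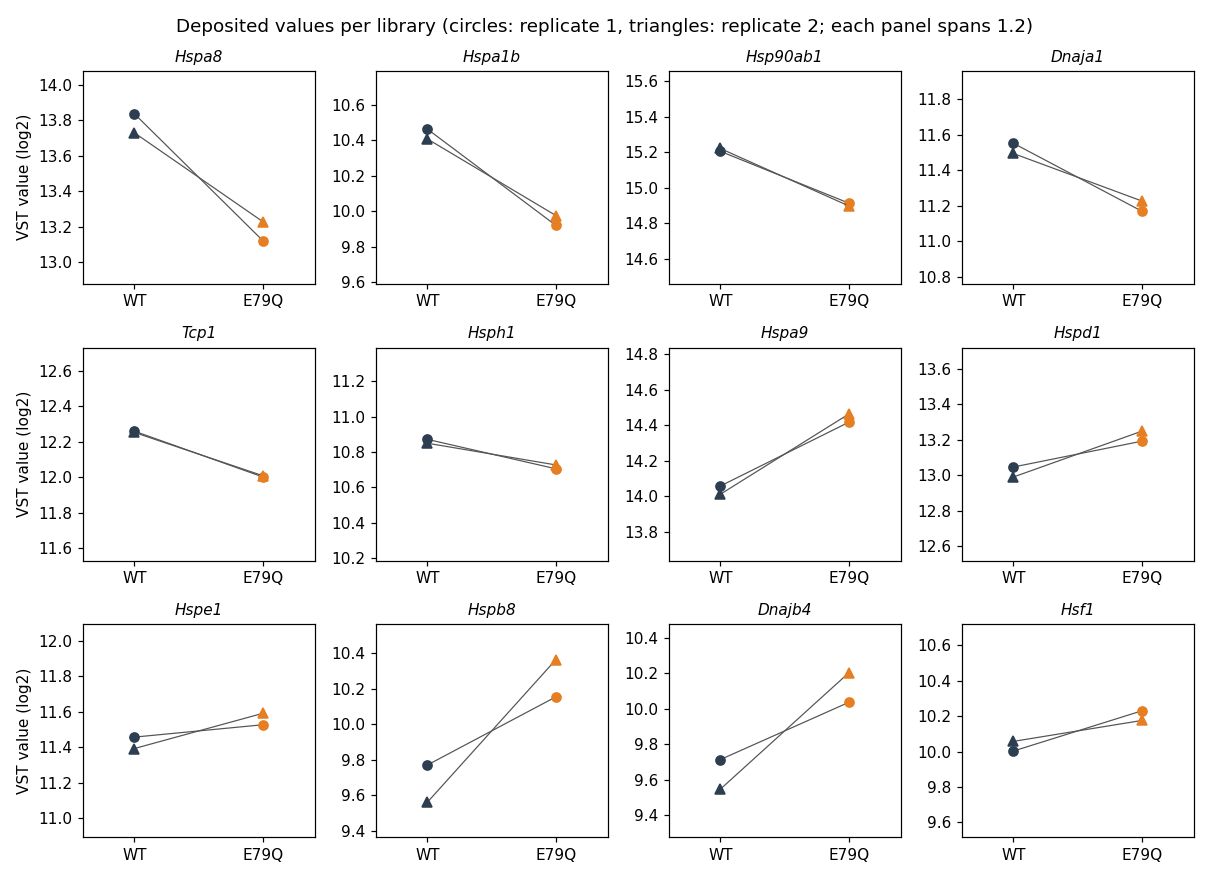
Deposited VST value (log2 scale) of 12 chaperone genes in each library, with replicate 1 as circles and replicate 2 as triangles, joined within a pair, on axes of equal span. Hspa8 drops from 13.84 and 13.73 in WT to 13.12 and 13.23 in E79Q, whereas Hspa9 climbs from 14.06 and 14.01 to 14.42 and 14.47.

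Of 8 members listed here as mitochondrial, 5 were called higher in E79Q cells, 0 lower and 3 not at all. Members given no compartment, such as Dnajc28, called lower, and Dnajc4, not called, are outside this count, which depends on the list. Hspa9, the matrix HSP70 (mortalin) that pulls in imported proteins, lay at 14.06 and 14.01 in WT and at 14.42 and 14.47 in E79Q. It rose by 0.41 ± 0.04, a 1.33-fold higher count, without overlap, and was called higher in every alternative fitted to all libraries. Hspd1, the HSP60 chaperonin, lay at 13.05 and 12.99 in WT and at 13.19 and 13.25 in E79Q and rose by 0.20 ± 0.05 (limma adjusted p = 0.00236). Its lid Hspe1 lay at 11.46 and 11.39 in WT and at 11.53 and 11.59 in E79Q. Its rise of 0.13 ± 0.05 (limma adjusted p = 0.0416) was not called after both rescalings, without the block, without the filter or without the mean-variance trend. The mitochondrial J protein Dnaja3 lay at 10.79 and 10.75 in WT and at 10.96 and 11.005 in E79Q and rose by 0.21 ± 0.05. Dnajc11, which associates with the cristae-organising complex, lay at 10.22 and 10.12 in WT and at 10.36 and 10.46 in E79Q and rose by 0.23 ± 0.06. Dnajc15 and Dnajc19, J proteins of the import motor, and Dnajc30 had differences of -0.03, -0.04 and -0.07 and were not called. Of 14 members on a core list of cytosolic HSP70, HSP110, HSP90, DNAJA and DNAJB genes, 8 were called lower and 2 higher. That list leaves out Dnajb2, which was called lower, and Dnajb6 and Hspa14, which were not called. These compartment lists were drawn up with the values known and support nothing by themselves. Of 15 further mitochondrial quality-control genes, all tested, 5 were called higher, 0 lower and 10 not at all, with a median of 0.06. Calls were thus made in 33.3% of them, against 40.4% of all tested genes, of which 21.5% were called higher. Lonp1, the matrix protease, rose by 0.52 ± 0.04, and Afg3l2, an inner-membrane protease, and Clpb, a disaggregase, rose by 0.30 and 0.29. Trap1, the mitochondrial HSP90, had a difference of 0.11 and was not called.

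**Figure D3:**
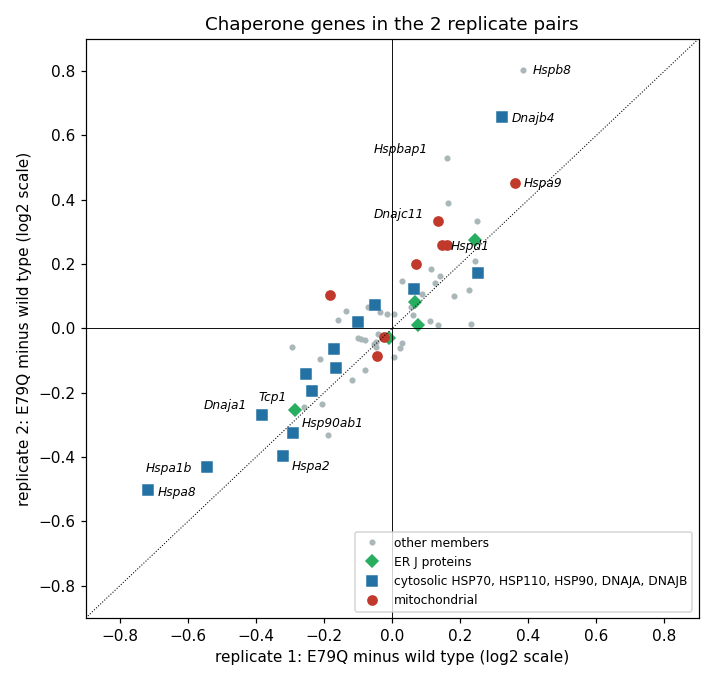
Difference between E79Q and WT (log2 scale) of each tested member in replicate pair 1 (horizontal) and pair 2 (vertical). Circles mark members listed as mitochondrial, squares the core list of cytosolic HSP70, HSP110, HSP90, DNAJA and DNAJB members, and diamonds ER J proteins. Hspa8 lies lowest on the horizontal axis at -0.72 and Hspb8 highest on the vertical axis at 0.80.

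The J proteins, which hand clients to HSP70 and trigger its ATPase, moved in both directions. Among 4 DNAJA genes, Dnaja1, the main farnesylated cytosolic partner of HSP70, lay at 11.55 and 11.49 in WT and at 11.17 and 11.23 in E79Q and fell by 0.33 ± 0.05. Dnaja4 lay at 9.71 and 9.75 in WT and at 9.96 and 9.92 in E79Q and rose by 0.21 ± 0.06. Its direction is opposite to that of Dnaja1, and Dnaja2, between 11.59 and 11.69, was not called. Of 6 tested DNAJB genes, 1 was called higher and 1 lower. Dnajb4 lay at 9.71 and 9.55 in WT and at 10.04 and 10.20 in E79Q and rose by 0.49 ± 0.07, a 1.56-fold higher count, by 0.32 in pair 1 and 0.66 in pair 2. Dnajb2, a neuronal-enriched J protein with ubiquitin-interacting motifs, lay at 9.55 and 9.56 in WT and at 9.34 and 9.33 in E79Q and fell by 0.22 ± 0.06. Dnajb1, the classic heat-inducible partner of HSP70, lay at 10.82 and 10.76 in WT and at 10.65 and 10.70 in E79Q. Its difference of -0.12 ± 0.05 was not called (limma adjusted p = 0.0852), though it was called lower after both rescalings.

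Of 24 tested DNAJC genes, which share only the J domain and have specialised posts, 5 were called higher, 2 lower and 17 not at all, with a median of -0.0091. Dnajc27, a small GTPase fused to a J domain, lay at 8.32 and 8.27 in WT and at 8.57 and 8.61 in E79Q and rose by 0.29 ± 0.07. Dnajc21, which acts in ribosome maturation, lay at 9.80 and 9.69 in WT and at 9.97 and 10.08 in E79Q and rose by 0.28 ± 0.06. The ER members split. Dnajc1, an ER membrane J protein, lay at 9.91 and 9.90 in WT and at 10.16 and 10.17 in E79Q and rose by 0.26 ± 0.06. Dnajc10, a disulphide reductase of the ER lumen, lay at 11.32 and 11.31 in WT and at 11.04 and 11.05 in E79Q and fell by 0.27 ± 0.05. Dnajc28 was near the filter, at 8.15 and 8.22 in WT and at 7.96 and 7.89 in E79Q, and fell by 0.26 ± 0.07. Dnajc27 and Dnajc28 were not tested under the stricter filter. Dnajc5, a vesicle protein and the fifth gene called higher, had a difference of 0.13, and the call was lost in 4 alternatives. For comparison, 12 of 16 listed ER chaperone genes outside the set (75%) were called higher and 0 lower, with a median of 0.17. This count depends on the list, which leaves out Serpinh1, the collagen chaperone of the ER, called lower by 0.58. Over all tested genes 21.5% were called higher. Among the ER chaperone genes Hspa5, the ER HSP70, rose by 0.59, Hyou1, its large relative, by 0.46, and Sil1, its exchange factor, by 0.45.

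The BAG proteins release nucleotide from HSP70 and link it to other pathways, and 3 of 6 were called higher and 1 lower. Bag2, an inhibitor of the CHIP ubiquitin ligase, lay at 9.22 and 9.24 in WT and at 9.47 and 9.45 in E79Q and rose by 0.23 ± 0.06. Bag3, which with Hspb8 directs clients to autophagy, lay at 10.16 and 10.12 in WT and at 10.27 and 10.31 in E79Q and rose by 0.15 ± 0.05 (limma adjusted p = 0.0395). Bag5 rose by 0.15 ± 0.06 (limma adjusted p = 0.0471), and Bag1, which couples HSP70 to the proteasome, fell by 0.15 ± 0.05 (limma adjusted p = 0.0296), at 10.89 and 10.83 in WT and 10.67 and 10.73 in E79Q. The calls of Bag1, Bag3 and Bag5 were lost without the filter and without the mean-variance trend, and those of Bag3 and Bag5 after both rescalings as well. Bag5 was also not called with robust empirical Bayes or under the stricter filter. Bag4 and Bag6 differed by 0.05 and -0.0091 and were not called. Hspbap1, an HSPB1-associated protein, lay at 9.26 and 9.08 in WT and at 9.43 and 9.61 in E79Q. It rose by 0.35 ± 0.08, by 0.16 in pair 1 and 0.53 in pair 2, and was not called without the replicate block. Hspbp1, an exchange factor, had a difference of -0.04.

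Small HSPs hold unfolding proteins without ATP, and 4 of the 8 genes with such symbols were tested. Hspb8, the partner of Bag3, lay at 9.77 and 9.56 in WT and at 10.16 and 10.37 in E79Q. The rise of 0.59 ± 0.08, a 1.70-fold higher count, was the widest of any member, and it was 0.38 in pair 1 and 0.80 in pair 2. Hspb1 (HSP27), an abundant small HSP of squamous epithelium, lay at 13.41 and 13.35 in WT and at 13.44 and 13.50 in E79Q. Its difference of 0.09 ± 0.05 was not called (limma adjusted p = 0.138), and was 0.03 in pair 1 and 0.15 in pair 2. In 48.8% of its windows Hspb1 matched the annotated pseudogene Hsp25-ps1. Hspb6 and Hspb11 were not called, with differences of -0.0023 and -0.02.

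The CCT chaperonin, a double ring of 8 kinds of subunit that folds actin and tubulin, showed 1 call. Tcp1, its alpha subunit, lay at 12.26 and 12.25 in WT and at 11.9999 and 12.01 in E79Q. It fell by 0.25 ± 0.05 (limma adjusted p = 0.00038), by nearly the same amount in both pairs (-0.26 and -0.24). The call was kept in every alternative fitted to all libraries. None of the other 7 tested subunits was called with the replicate block, 0 of them also at an unadjusted p under 0.05. Cct2, Cct3, Cct5 and Cct8 differed by -0.05, -0.07, -0.04 and -0.06, and Cct4, Cct6a and Cct7 by 0.06, 0.03 and 0.07, each with an SE of 0.04 to 0.05. The sign of Cct6a turned after quantile normalization. Without the block, a fit that counts too many degrees of freedom for centred values, Cct2 and Cct5 were called lower and Cct4 higher. Cct2 was also called lower after quantile normalization. The testis-type subunit Cct6b lay between 7.15 and 7.29 and was not tested. Of 13 prefoldin and CCT helper genes, 12 were tested and 3 were called higher, namely Uri1 (0.23), Pdrg1 (0.20) and Pfdn2 (0.20), with none lower.

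**Figure D4:**
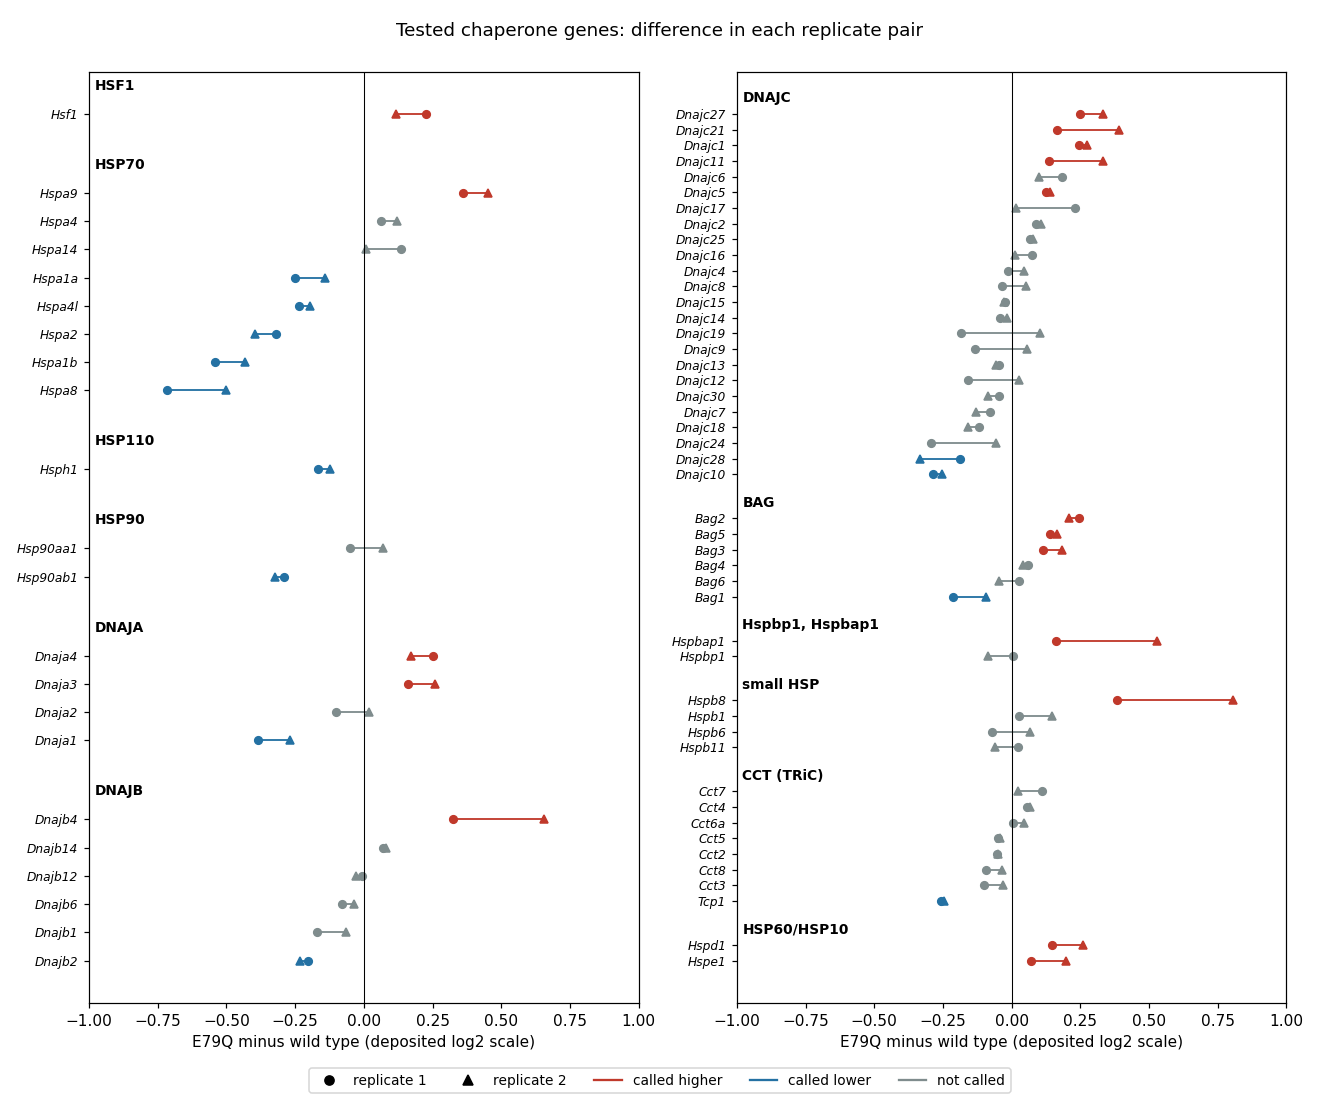
Difference between E79Q and WT (log2 scale) of the 68 tested chaperone genes in replicate pair 1 (circles) and pair 2 (triangles), grouped by family and coloured by the limma call. The HSP70 genes Hspa8, Hspa1b and Hspa2 lie left of 0 in both pairs, Hspa9 right of 0, and 7 of the 8 CCT genes within 0.11 of 0.

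The replicate pairs differed in size and, for some members and family medians, in sign. Median differences of the members were -0.01 in pair 1 and 0.02 in pair 2, against 0.0042 and 0.01 over all tested genes, and 46 of 68 members were higher in pair 2 than in pair 1, against 54.2% of all tested genes. By family, the HSP70 medians were -0.24 and -0.17 in pairs 1 and 2, the HSP60 and HSP10 medians 0.11 and 0.23, the DNAJC medians -0.03 and 0.04, and the CCT medians -0.05 and -0.03. In both pairs 30 members were higher in E79Q and 27 lower; 41.1% and 38.1% of all tested genes were.

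Other heat-inducible genes gave no common direction, with 2 higher and 3 lower of 12 tested and a median of -0.07; the list shares Stip1, Ahsa1, Chordc1 and Fkbp4 with the co-chaperones. Gadd45b, a stress sensor, fell by 0.83, Atf3, a stress-induced transcription factor, rose by 0.67, and Serpinh1 (HSP47), the collagen chaperone of the ER and a classic HSF1 target, fell by 0.58. Immediate early genes, which respond to handling, were called higher in 12 and lower in 1 of 13 tested, with a median of 0.62 and summed normalised counts of 21690 and 24117 in WT and 32378 and 36134 in E79Q. Fosl1, Fos and Myc rose by 1.39, 1.15 and 0.99. The part of these genes, and of Cd68, in the chaperone values was not tested.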

How the data were processed

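The authors deposited 1 table of variance-stabilised log2 values per gene and library. Per the submitters' processing notes, the tools were DESeq2, DESeq 1.22.2, Salmon 0.11.3 and STAR 2.5.2b, and the build was mm9; the role of each tool, the annotation and strand setting are not stated in those notes. In every gene the WT and HET values of replicate 1 sum to those of replicate 2 to within 1.31e-13, so the deposited values had been centred on the replicate number. This pairs the libraries, and leaves pair differences unaltered. It also gives WT and E79Q the same spread in every gene. limma 3.58.1 (R 4.3.3) was fitted to all 10857 genes passing the filter, as genotype with a replicate block, trended empirical Bayes and Benjamini-Hochberg adjustment; the prior degrees of freedom were 14.6 against 1 residual. The fit was also run on simulated data with noise drawn at its own fitted spread and few changed genes. That setting follows the fit's assumptions, so it cannot show whether calls in these data are sound. Counts were approximated by the inverse of the VST formula, with the floor taken as a count of 0; depth before normalisation is unknown. Alternatives were the fit without the block, 2 rescalings, 2 filters, 2 variance priors and leaving out each library.

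Named genes are, in each family, up to 4 genes called higher and 4 called lower, by size of difference, with a set of core chaperones, every Cct gene and the 3 widest called genes of each other list; others are mentioned for completeness. Members and lists were chosen with earlier results of these data known. Sequences are from RefSeq (GRCm38.p6) and GENCODE M21, neither of which is the build of the deposited table, and no coordinates were carried between builds. 1 immune marker of the planned list is not reported here.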

Additional observations from a re-analysis of the deposited data

How the results depend on the processing

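Under 11 alternatives the members called higher numbered 12 to 22 and those called lower 10 to 18, against 17 and 13, and no called member reversed its direction into another call. Without the replicate block 22 were called higher and 18 lower, and 6004 genes of the table against 4388. That fit ignores the centring on the replicate number, so its added calls are not evidence of differences. The table's count was 3840 without the filter on low values. In every alternative fitted to all libraries 19 of the 30 calls were kept, 10 higher and 9 lower: Bag2, Dnaja3, Dnaja4, Dnajb4, Dnajc1, Dnajc11, Dnajc21, Hspa9, Hspb8 and Hspd1, and Dnaja1, Dnajb2, Dnajc10, Hsp90ab1, Hspa1b, Hspa2, Hspa4l, Hspa8 and Tcp1. The median difference over tested members was -0.0057 in the main fit. It was -0.024 after median centring, -0.023 after quantile normalization and -0.018 without the filter. When 1 library was left out it ran from -0.014 to 0.028. Its sign turned without replicate 1 of either group (0.028), and also under the stricter filter (0.0071). Fits without 1 library also lack the replicate block. Leaving out a WT library or its equally numbered E79Q library gave the same differences because the deposited values are centred by pair. The left-out library had also entered the remaining values through that centring. These fits therefore cannot show whether a call would survive the loss of a library. The lone sample of a group was then assumed to vary like the other group. Among named genes that were not called, Hsp90aa1 turned to -0.0080 after median centring, to -0.024 after quantile normalization and ran from -0.021 without replicate 2 to 0.041 without replicate 1 of either group, and Cct6a turned to -0.016 after quantile normalization. The cause of these turns was not tested. Genes near the floor are limited by compression of the scale, and small changes by the spread of 2 pairs.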
